A study of Mus musculus with 26 samples.

Results

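The genes around Hic1 on mouse chromosome 11 were taken as every row of the deposited tables whose locus starts between 73 and 77.3 Mb (build mm10), leaving out olfactory receptor symbols (Olfr). Of 107 rows in that window 31 were olfactory receptors, which left 76 genes of the 24340 in each table, Hic1 among them. FPKM (fragments counted per kilobase of transcript and corrected for library size) is compared over 6 genotype groups, with each gene placed by its distance from Hic1. Within the window, members were taken by position and not by their values, but earlier results of these data were known when it was chosen.

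HIC1 is a zinc finger repressor with a BTB domain that binds DNA directly and recruits corepressor complexes, and in embryonic limbs it is found mainly in connective tissue progenitors. Its gene lies in a dense stretch of housekeeping, signalling and RNA genes that corresponds to the human interval deleted in Miller-Dieker lissencephaly. A modified allele at such a site sits close to the neighbours' own promoters, introns and ends, so their RNA is a measure separate from the RNA of the targeted gene.

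Forelimbs at E13.5 were measured by polyA RNA sequencing in 26 libraries under 2 strategies. The conventional groups are Hic1 +/+ (wild type, n = 3), Hic1 +/- (heterozygote, n = 3) and Hic1 -/- (knockout, n = 3). The conditional groups are Hic1 f/+ without Cre (control, n = 5), PxCre; Hic1 f/+ (heterozygote, n = 5) and PxCre; Hic1 f/f (knockout, n = 7). PxCre is a Cre recombinase driven by Prrx1 sequences and acts in limb bud mesenchyme, so other cells of the forelimb keep their floxed Hic1. Every conditional group carries at least 1 floxed allele, and the conditional controls, which the labels call wild type, are not free of it. The knockouts alone carry a modified allele on both chromosomes, so loss of Hic1 and the presence of modified DNA beside its neighbours cannot be told apart here. The labels do not give the deleted exons, strain, or whether replicates are separate embryos, and p-values therefore measure the spread between these libraries.

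Hic1 was deposited at chr11:75164565-75170255 and is transcribed from the minus strand. Smg6 was deposited at chr11:74925872-75164448 on the plus strand, so the 3′ ends of both genes face each other across 116 bases. On the other side the nearest measured genes are Dph1 and Ovca2, which share 1 deposited locus 5.69 kb away, and Rtn4rl1, 23.7 kb away on the plus strand. Mir212 and Mir132 lie 3.13 and 3.43 kb away. The promoters of Hic1 and Smg6 are shown because these genes are the 2 called members of the conditional knockout and start at opposite ends of the pair. The windows run from 250 bases before to 50 after a RefSeq start (build GRCm38.p6), 5′ to 3′ on the gene's strand, with CG dinucleotides in capitals.
Smg6, chr11:74925604-74925903, plus strand: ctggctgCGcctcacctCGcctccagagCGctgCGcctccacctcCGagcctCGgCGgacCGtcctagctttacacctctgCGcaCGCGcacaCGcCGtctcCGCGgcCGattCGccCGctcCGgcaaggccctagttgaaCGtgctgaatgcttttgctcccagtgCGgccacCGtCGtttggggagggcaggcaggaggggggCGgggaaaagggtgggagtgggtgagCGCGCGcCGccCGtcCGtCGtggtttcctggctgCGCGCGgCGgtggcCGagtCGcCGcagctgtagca
Hic1, chr11:75168103-75168402, minus strand: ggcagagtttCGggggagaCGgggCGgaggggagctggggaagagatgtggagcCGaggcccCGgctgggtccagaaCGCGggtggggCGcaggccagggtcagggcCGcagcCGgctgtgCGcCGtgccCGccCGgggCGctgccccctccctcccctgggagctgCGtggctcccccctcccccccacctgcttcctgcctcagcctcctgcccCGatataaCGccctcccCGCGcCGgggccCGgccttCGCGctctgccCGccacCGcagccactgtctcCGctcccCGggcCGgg
Hic1, chr11:75170206-75170505, minus strand: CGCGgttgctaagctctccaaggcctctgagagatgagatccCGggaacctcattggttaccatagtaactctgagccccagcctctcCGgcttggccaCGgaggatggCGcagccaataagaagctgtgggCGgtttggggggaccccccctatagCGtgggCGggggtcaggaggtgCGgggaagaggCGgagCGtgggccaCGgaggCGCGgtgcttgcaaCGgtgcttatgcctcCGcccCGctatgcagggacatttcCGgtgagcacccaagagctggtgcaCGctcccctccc
The Smg6 window holds 38 CG dinucleotides and the Hic1 windows 29 and 20. Over 74 such windows of 59 members the median was 22, beside a median of 7 over all 32851 windows of the table. The letters GGGCACCC and GGGCAACC, forms of the HIC1 consensus, and their reverse complements were in 0 of the 74 windows and in 1.95% of all windows.

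**Figure D1:**
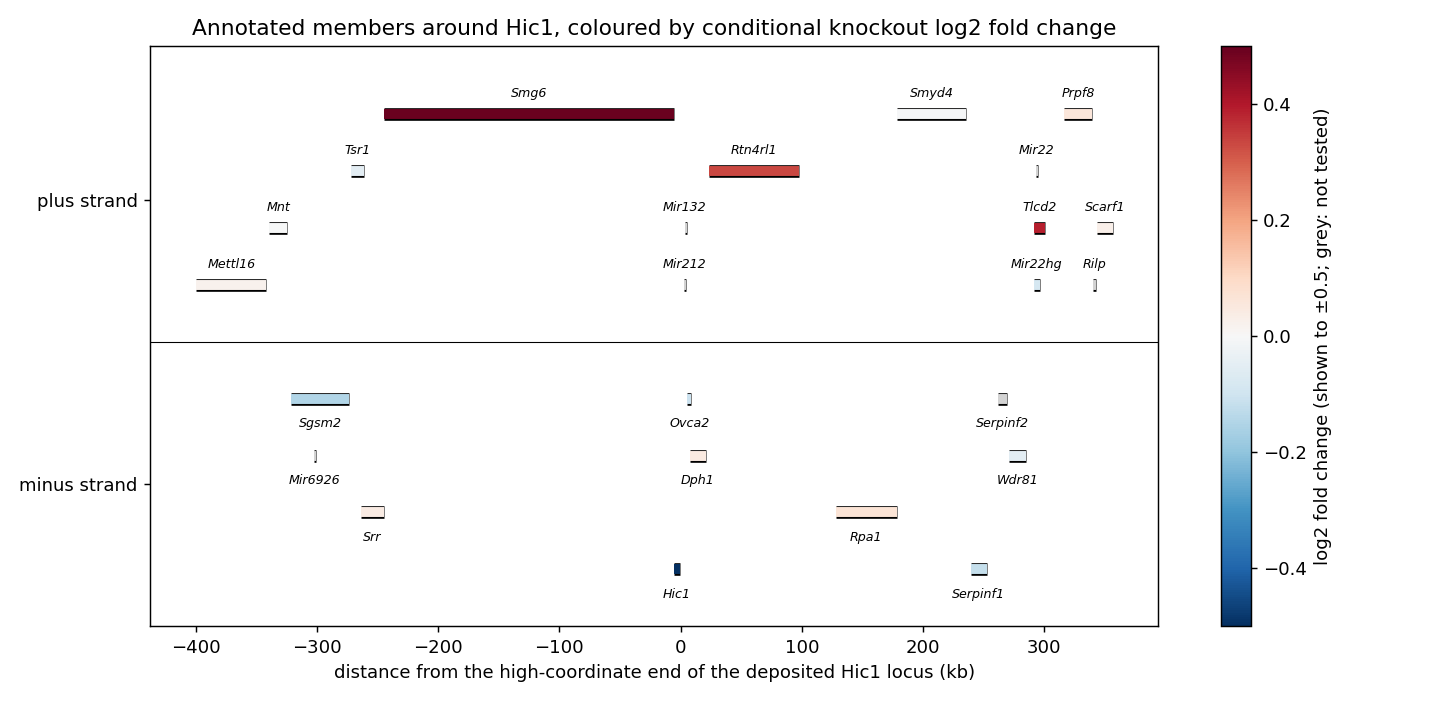
Members within 350 kb of Hic1 as annotated in GENCODE, by distance in kb from the high-coordinate end of the deposited Hic1 locus (x) and by strand (y; the height within a strand only separates names). Colour is the log2 fold change of FPKM + 1 in the conditional knockout against control; Smg6, Rtn4rl1 and Tlcd2 are the darkest red, at 0.49, 0.34 and 0.39, and Hic1 is at -3.43, past the end of the scale.

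Summed FPKM per library lay between 410482 and 490248 (conventional) or between 436559 and 497121 (conditional). The steps between low FPKM values gave relative depths that span 1.30-fold and 1.89-fold within the tables, and the read totals are unknown. The forelimb marker Tbx5 (group means from 50.1 to 66.3 FPKM) and the mesenchyme marker Prrx1 were expressed in every group. The hindlimb markers Tbx4 and Pitx1 were also expressed in every group, with highest group means of 8.07 and 3.70 FPKM. Prrx1 was as low as 32.9 FPKM among conventional knockouts, where conventional wild type and heterozygotes had at least 101.5. Conventional knockout replicate 1 stands apart: its median correlation with the other libraries was 0.869, where all others of its table had at least 0.970. In that library 28 of 52 tested members (53.8%) were above all 8 other conventional libraries and 13 (25%) were below all of them, beside 42.8% and 39.6% of all 12717 tested genes.

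Hic1 RNA followed the genotypes in all 26 libraries. In conventional wild type Hic1 was at 64.2, 49.1 and 56.2 FPKM, in heterozygotes at 37.3, 32.2 and 30.9, and in knockouts at 2.56, 1.30 and 1.23. The conditional controls had Hic1 at 52.4, 65.8, 58.0, 65.2 and 61.4 FPKM and the heterozygotes at 34.9, 31.4, 28.0, 32.4 and 32.8. Across the 7 conditional knockouts it was 2.76 at the lowest, 4.91 at the median and 6.16 at the highest. No library of one genotype overlapped another genotype of the same strategy. Group means were 56.5 ± 7.56 (SD, n = 3), 33.5 ± 3.42 (n = 3) and 1.70 ± 0.748 FPKM (n = 3) in the conventional series and 60.6 ± 5.52 (n = 5), 31.9 ± 2.52 (n = 5) and 4.82 ± 1.13 FPKM (n = 7) in the conditional series. In bulk tissue, fewer cells that express a gene and less RNA per cell cannot be told apart.

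On the log2(FPKM + 1) scale used for all fold changes below, Hic1 fell by 4.44 (SE 0.20) in conventional knockouts against wild type, with a Benjamini-Hochberg adjusted p of 1.20e-04 from limma. Against control the conditional knockouts fell by 3.43 (SE 0.12), with a limma adjusted p of 3.58e-12. The heterozygote differences were -0.74 (SE 0.20, limma adjusted p = 1.00) in the conventional series and -0.90 (SE 0.13, limma adjusted p = 0.0209) in the conditional series. The conventional fit took a shared spread from all 3 groups, knockout replicate 1 included, without pairing. In conventional heterozygote against wild type 0.37% of all genes had an unadjusted p under 0.05. That share is far below the threshold itself, so p-values there run high. The conditional heterozygote call was lost in 8 of 17 fits that left out 1 library, with a fold change between -0.95 and -0.86 throughout. It was kept in 4 of 11 other alternatives, and was lost with a pseudocount of 0.1 (limma adjusted p = 0.121), without the filter on low values (0.0746) and with a replicate block (0.109).

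Smg6 was higher in the conditional knockout, and no other neighbour passed in any of the 6 comparisons as fitted here. SMG6 is the endonuclease of nonsense-mediated decay, which cuts messenger RNAs that carry premature stop codons, and its gene is the nearest neighbour of Hic1. The conditional controls had Smg6 at 13.4, 14.5, 16.8, 13.9 and 15.3 FPKM, the heterozygotes at 13.9, 15.6, 16.7, 15.6 and 16.99, and the knockouts at 18.7 (lowest), 21.5 (median) and 23.9 (highest). All 7 knockouts were above all 10 other conditional libraries, and controls and heterozygotes overlapped. Means were 14.8 ± 1.32 (SD, n = 5), 15.8 ± 1.21 (n = 5) and 21.2 ± 1.84 FPKM (n = 7), a ratio of 1.44 between knockout and control. The log2 fold change was 0.49 (SE 0.07, limma adjusted p = 9.85e-04), which ranked Smg6 at place 9 of the 12918 genes tested. Together with Hic1, the targeted gene, this made 2 called members of 51, beside 0.263% of all genes tested. Without Hic1, whose change follows from the design, Smg6 was the 1 called neighbour of 50.

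Against the conditional heterozygote, which shares Cre and 1 floxed allele with the knockout, Smg6 differed by 0.41 (SE 0.07, limma adjusted p = 0.0193). Again Hic1 and Smg6 were the 2 called members of 51 (0.0774% of all genes), with Smg6 the 1 called neighbour of 50. The heterozygote differed from control by 0.09 (95% interval -0.06 to 0.24, limma adjusted p = 0.751), and its mean lay 15.3% of the way from control to knockout. The same heterozygotes stood 51.4% of the way for Hic1. In the conventional series the heterozygote means stood 24.2% of the way for Smg6 and 42.1% for Hic1. No interval was computed for these shares, and whether they differ was not tested. Hic1 was the 1 called member of 51 between heterozygote and control (0.00774% of all genes), so no neighbour was called.

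The column names hold letters (NZ, OA, OB, OC) whose meaning is not given, and they do not fall evenly over the groups. Among NZ libraries Smg6 was at 13.4 and 14.5 FPKM in controls, 13.9 in the heterozygote and 21.5 and 22.9 in knockouts. The OB libraries had 16.8 in the single control, 15.6 to 16.99 in 3 heterozygotes and 18.7 to 23.9 in 5 knockouts. Knockouts were thus above the other genotypes within both sets. The knockout against control call was kept with the letters as a batch term (0.46, limma adjusted p = 0.0441) and lost with OB libraries alone (0.29, adjusted p = 0.904) or NZ libraries alone (0.64, adjusted p = 0.0813). The knockout against heterozygote call was lost with the letters as a batch term (0.41, limma adjusted p = 0.0584) and without heterozygote replicate 1 (adjusted p = 0.0648) or 4 (adjusted p = 0.0733). It was also lost with NZ or OB libraries (0.40, limma adjusted p = 0.102), with OB alone (0.32, adjusted p = 0.540) and with NZ alone (0.64, adjusted p = 0.273).

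In the conventional series Smg6 was at 20.4, 18.0 and 17.8 FPKM in wild type, at 21.7, 18.4 and 19.9 in heterozygotes and at 27.4, 22.3 and 22.2 in knockouts. Each knockout was above each of the 6 other libraries, by a margin of under 1 FPKM at the closest point. Means were 18.7 ± 1.47 (SD, n = 3), 20.0 ± 1.67 (n = 3) and 24.0 ± 2.99 FPKM (n = 3). The log2 fold change of knockout against wild type was 0.34 (SE 0.12, 95% interval 0.06 to 0.62). It did not pass the limma test, which was fitted without pairing by replicate number (adjusted p = 0.596), and it did not pass with a replicate block. Hic1 was the 1 called member of 52 in the same comparison (0.0236% of all genes) and in knockout against heterozygote (0.00786%). No neighbour was called in either. With the CL libraries alone, which leave out knockout replicate 1, the Smg6 difference was 0.30 (limma adjusted p = 0.200).

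**Figure D2:**
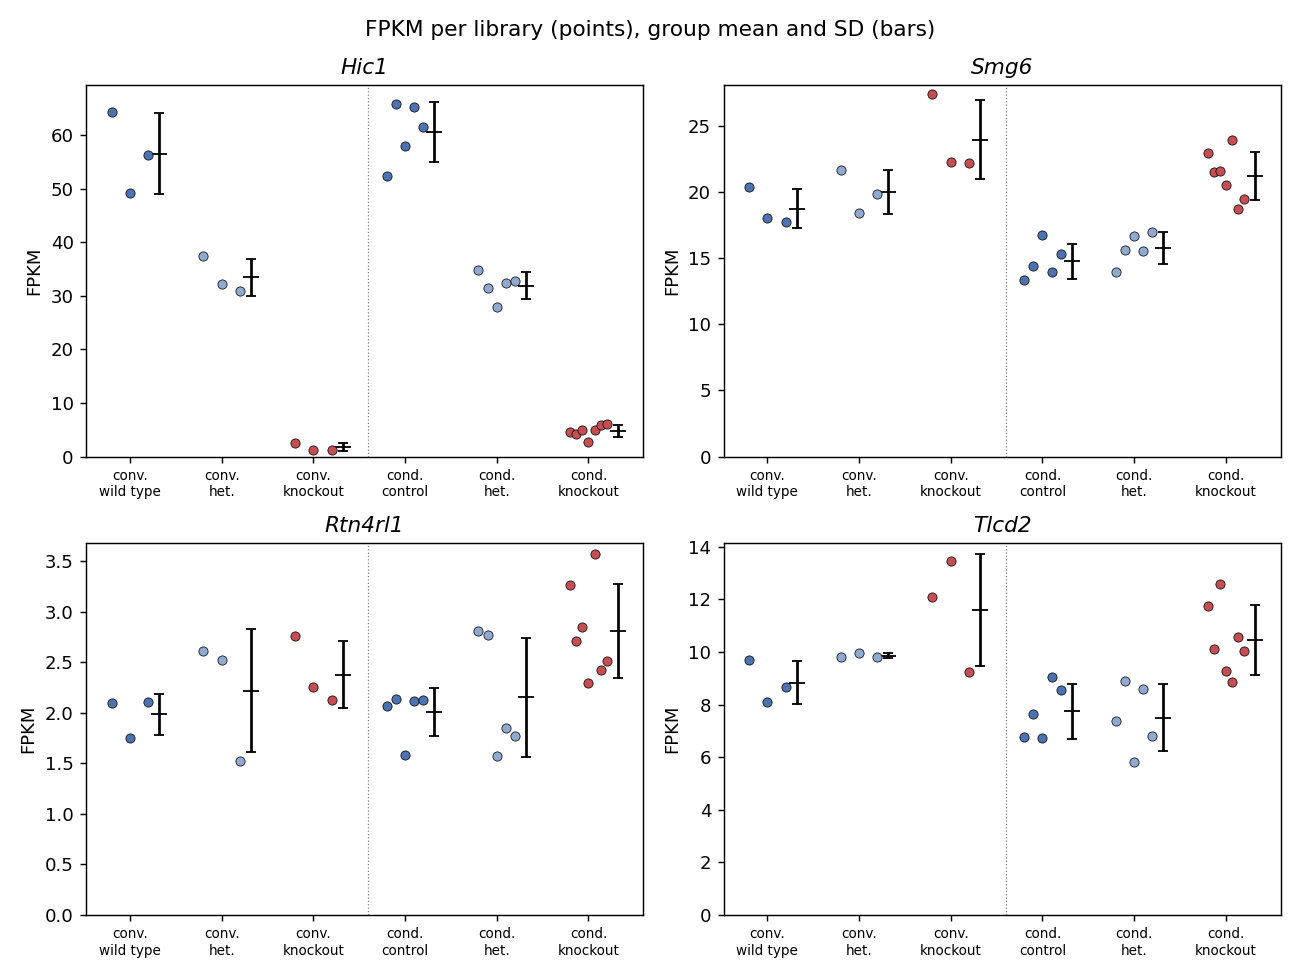
FPKM of Hic1, Smg6, Rtn4rl1 and Tlcd2 in each library (points) of the 3 conventional (conv.) and 3 conditional (cond.) groups, on linear axes from 0, with the group mean and SD beside them. Hic1 steps down with each allele; Smg6 is near 14.8 and 15.8 FPKM in conditional controls and heterozygotes and at 21.2 in knockouts.

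Rtn4rl1 and Tlcd2 had the next largest conditional knockout differences, and neither passed the test. Rtn4rl1 encodes a homologue of the Nogo receptor, and Tlcd2 a membrane protein with a TLC domain. Rtn4rl1 was at 2.07, 2.13, 1.58, 2.12 and 2.13 FPKM in conditional controls, at 2.81, 2.77, 1.57, 1.85 and 1.77 in heterozygotes and at 2.30 (lowest), 2.71 (median) and 3.58 (highest) in knockouts. Knockouts lay above all controls but overlapped the heterozygotes. The log2 fold change against control was 0.34 (SE 0.11, limma adjusted p = 0.415). Conventional Rtn4rl1 was at 2.10, 1.75 and 2.10 FPKM in wild type and at 2.76, 2.25 and 2.13 in knockouts. These again did not overlap, but by a narrow margin of 2.13 against 2.10 FPKM at the closest point. Heterozygotes, at 2.62, 2.52 and 1.52, overlapped both. The conventional log2 fold change of Rtn4rl1 was 0.18 (SE 0.16, limma adjusted p = 0.597), and 0.10 without knockout replicate 1.

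Tlcd2 lies 298 kb from Hic1. The conditional controls had Tlcd2 at 6.76, 7.62, 6.74, 9.05 and 8.56 FPKM, the heterozygotes at 7.39, 8.90, 5.80, 8.58 and 6.79, and the knockouts at 8.85 (lowest), 10.1 (median) and 12.6 (highest). Only the lowest knockout reached into the range of the other groups. The log2 fold change was 0.39 (SE 0.10, limma adjusted p = 0.177) against control and 0.44 (SE 0.10, limma adjusted p = 0.261) against heterozygote. In the conventional series Tlcd2 was at 9.71, 8.09 and 8.68 FPKM in wild type, at 9.81, 9.97 and 9.80 in heterozygotes and at 12.1, 13.46 and 9.25 in knockouts, which overlapped (0.35, SE 0.14, limma adjusted p = 0.596). The annotated Tlcd2 gene overlaps Mir22hg on the same strand, and how reads there were divided is not given in the sources used here.

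Over both strategies, 51 members were tested in both tables. Smg6 and Rtn4rl1 were the 2 members (3.92%) whose knockouts were above every wild type or control library in both, beside 0.104% of the 12557 genes tested in both. For Rtn4rl1 the conventional margin was narrow (2.13 against 2.10 FPKM). Hic1, the targeted gene, was the 1 member (1.96%) below in both, beside 0.151% of those genes, and no neighbour was. Taken singly, 2 members were above without overlap in the conditional knockout (0.364% of all genes) and 1 below (0.325%), while the conventional knockout had 6 above (6.57% of all genes) and 3 below (7.86%). The conventional 6 were Bhlha9, Smg6, Rap1gap2, Prpf8, Rtn4rl1 and Inpp5k, and the 3 were Hic1, Mir22hg and Fam101b. Whether the strategies differ was not tested, since the tables were fitted separately.

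Distance from Hic1 was described by the median log2 fold change in 4 classes, without Hic1. In the conditional knockout against control the 4 tested members under 100 kb had a median of 0.19, the 20 members at 100 to 500 kb 0.01, the 7 at 500 kb to 1 Mb 0.05 and the 19 beyond 1 Mb -0.00, beside 0.01 over all genes. The nearest class was not uniform: Smg6 and Rtn4rl1 were at 0.49 and 0.34, Dph1, a diphthamide synthesis enzyme, at 0.05 and Ovca2, a serine hydrolase, at -0.11. Dph1 and Ovca2 lie between Hic1 and Rtn4rl1. In the conventional knockout the medians were 0.21, 0.12, -0.02 and 0.07 in the same order, beside -0.02 over all genes. There Dph1 was at 0.23 and Ovca2 at 0.18, with conventional knockout replicate 1 above all 8 others for both, at 14.5 and 19.7 FPKM.

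**Figure D3:**
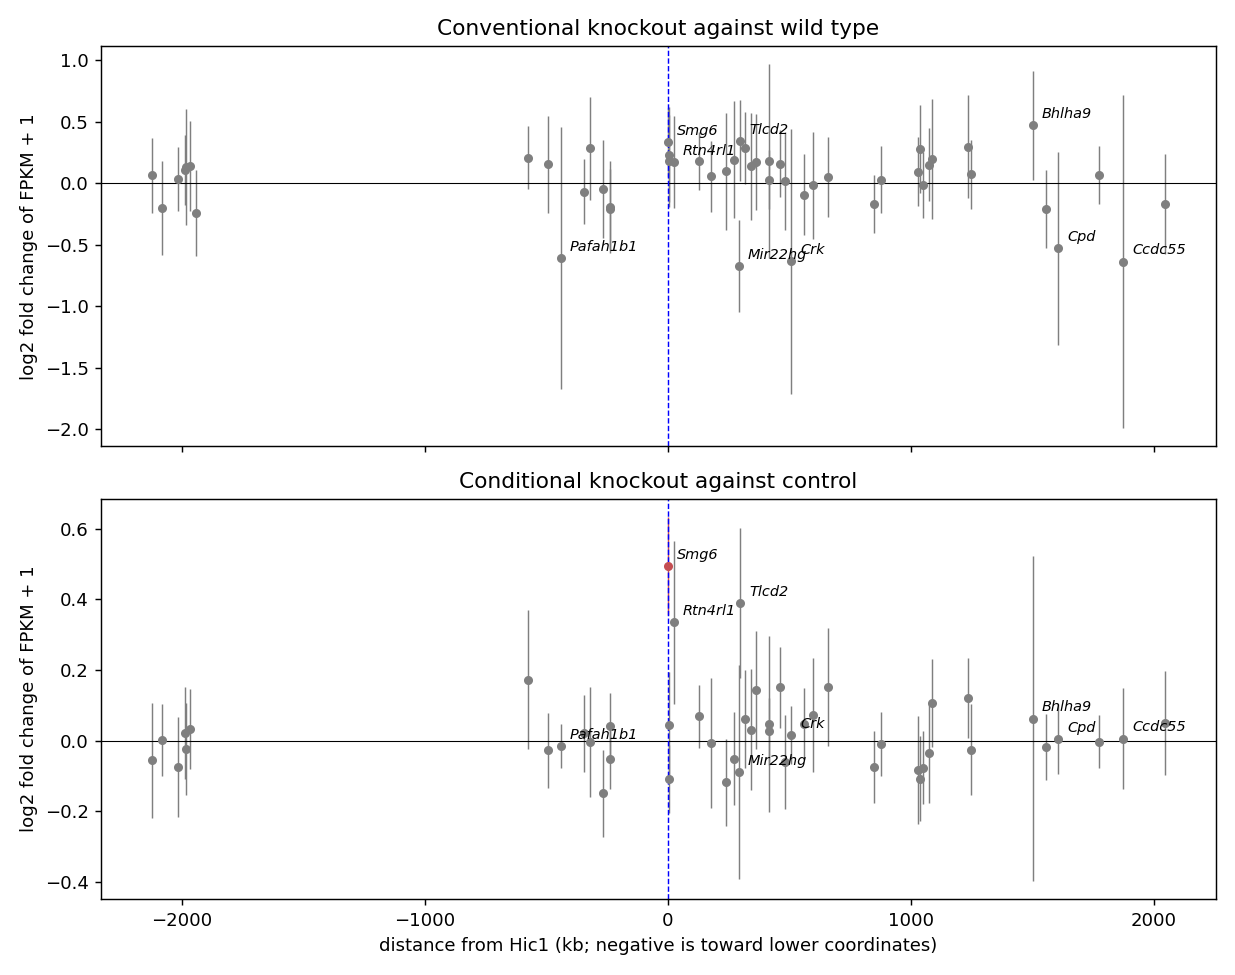
Log2 fold change of FPKM + 1 (y, with limma 95% intervals) against distance from Hic1 in kb (x) for each tested member other than Hic1, in the conventional knockout against wild type (top) and the conditional knockout against control (bottom, a narrower y axis). Smg6, in red in the bottom panel, is the 1 called member there, and the top panel has none; Tlcd2 and Rtn4rl1 are the next highest in the conditional panel, and the conventional intervals are wider.

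Over the 50 tested members without Hic1, the median absolute log2 fold change in the conditional knockout against control was 0.051, beside 0.049 over all genes. Setting aside also Smg6, Tlcd2 and Rtn4rl1, which had the largest values, left 47 members. Their log2 fold changes ran from -0.15 for Sgsm2, a Rab GTPase-activating protein, to 0.17 for Rap1gap2, a Rap1 GTPase-activating protein. For 42 of the 47 the 95% interval lay within 0.3 of 0 on either side. Inpp5k, an inositol phosphatase, was at 0.15 (limma adjusted p = 0.529), with 8.77 ± 0.732 FPKM in control (SD, n = 5) and 9.82 ± 0.341 in knockout (n = 7). In all, 8 of 51 members had an unadjusted p under 0.05, beside 6.21% of all genes. The next neighbours on the low-coordinate side were Srr, serine racemase, at 0.04, Tsr1, a ribosome maturation factor, at -0.05, and Sgsm2 at -0.15 (95% interval -0.27 to -0.03). Farther out, Mnt, a MAX partner that represses transcription, was at -0.00 and Mettl16, an RNA methyltransferase, at 0.02. Cluh, past Pafah1b1, was at -0.03. Beyond Rtn4rl1 on the other side, Rpa1, a subunit of the single-stranded DNA binding complex, was at 0.07, Smyd4 at -0.01, Serpinf1, a secreted serpin, at -0.12 and Wdr81 at -0.05.

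The conditional heterozygote against control had 2 members other than Hic1 with an unadjusted p under 0.05, beside 5.61% of all genes. Rpa1 was at 46.9 ± 2.78 FPKM in control (SD, n = 5) and 52.0 ± 2.78 in heterozygotes (n = 5), a log2 difference of 0.15 (limma adjusted p = 0.747). Gm12338, a predicted gene that shares a deposited locus with Pitpna, was at 4.79 ± 0.906 and 3.50 ± 0.900 FPKM, a difference of -0.37 (limma adjusted p = 0.747). Crk, at -0.08, and Myo1c, an unconventional myosin, at -0.12, followed; without heterozygote replicate 3 Myo1c was at -0.066. In the conditional knockout against heterozygote 10 of 51 members had an unadjusted p under 0.05, beside 4.63% of all genes. Apart from Hic1, Smg6, Tlcd2 and Rtn4rl1 these were Gm12338 at 0.42 (limma adjusted p = 0.597), Doc2b at 0.19, Inpp5k at 0.13, Crk at 0.09, Ovca2 at -0.12 and Gsg2, the kinase haspin, at -0.16. Doc2b, Inpp5k, Crk, Ovca2 and Gsg2 each had a limma adjusted p of 0.930.

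The conventional heterozygote against wild type had 0 called members of 52 by limma (0% of all genes). There 1 member, Hic1, had an unadjusted p under 0.05, beside 0.37% of all genes. With so small a share, p-values in this comparison run high, and the lack of calls says little. After Hic1 the smallest p-values belonged to Mir22hg at -0.25, Bhlha9 at 0.29, Tlcd2 at 0.15 and Doc2b, a calcium sensor of vesicle release, at 0.17. Without heterozygote replicate 1, Mir22hg was at -0.13, Bhlha9 at 0.12 and Doc2b at 0.086. Tlcd2 was at 0.093 without wild type replicate 2, and Doc2b ran from 0.082 without wild type replicate 2 to 0.30 without wild type replicate 1, with 0.27 without heterozygote replicate 3. In conventional knockout against heterozygote, Prpf8, the core spliceosome protein, was at 0.26 and Srr at -0.27, neither called (limma adjusted p = 0.697 for both). Without knockout replicate 1 these values were 0.13 and -0.11. Mir22hg was at -0.42 in the same comparison (limma adjusted p = 0.697).

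Mir22hg, the host transcript of miR-22, and Bhlha9, a limb transcription factor, had the largest conventional knockout values in either direction apart from Hic1, and neither passed the test. Mir22hg was at 3.16, 3.38 and 2.59 FPKM in conventional wild type, 1.84, 2.54 and 2.82 in heterozygotes and 1.22, 1.49 and 1.93 in knockouts, so knockouts lay below all wild types. The log2 fold change was -0.67 (SE 0.16, limma adjusted p = 0.411). In the conditional series it was -0.09 (95% interval -0.39 to 0.21). Bhlha9 was at 3.15, 2.47 and 2.30 FPKM in conventional wild type and 4.84, 3.28 and 4.06 in knockouts, without overlap, for a log2 fold change of 0.47 (SE 0.19, limma adjusted p = 0.596). Its conditional difference was 0.06 (95% interval -0.40 to 0.52), with controls from 1.43 to 4.10 FPKM. Summed over lists of 5 genes, none of them at 0 throughout a group, tendon markers were also lower in conventional knockouts (107.5 to 112.7 FPKM) than in wild type (142.2 to 154.2) and erythroid markers higher (2565 to 5606 against 2151 to 2453). Of 6 neuron and Schwann markers, also none at 0 throughout, the sum was lower in conventional knockouts (19.0 to 25.0 FPKM) than in wild type (26.8 to 27.0). The other lists overlapped between these groups. For all 3 lists their part in these differences was not tested.

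After Mir22hg, the most negative conventional knockout values belonged to Ccdc55 (-0.64), Crk (-0.63), Pafah1b1 (-0.60) and Cpd (-0.53), which were low in knockout replicate 1. Pafah1b1, the LIS1 regulator of dynein, was at 14.0 FPKM there and at 56.3 at the median of the 8 other libraries. Crk, an adaptor of tyrosine kinase signalling, was at 9.34 against 39.5, Ccdc55 at 1.85 against 12.2 and Cpd, a carboxypeptidase, at 6.11 against 18.5. Each was below all 8 others. In the same library Nxn, a redox regulator of Wnt signalling, was at 88.2 against 52.5 FPKM and Serpinf1 at 64.5 against 40.3, both above all 8 others. The conditional knockout differences of the same genes were small, with Pafah1b1 at -0.02, Crk at 0.02, Ccdc55 at 0.01, Cpd at 0.00 and Nxn at 0.11.

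**Figure D4:**
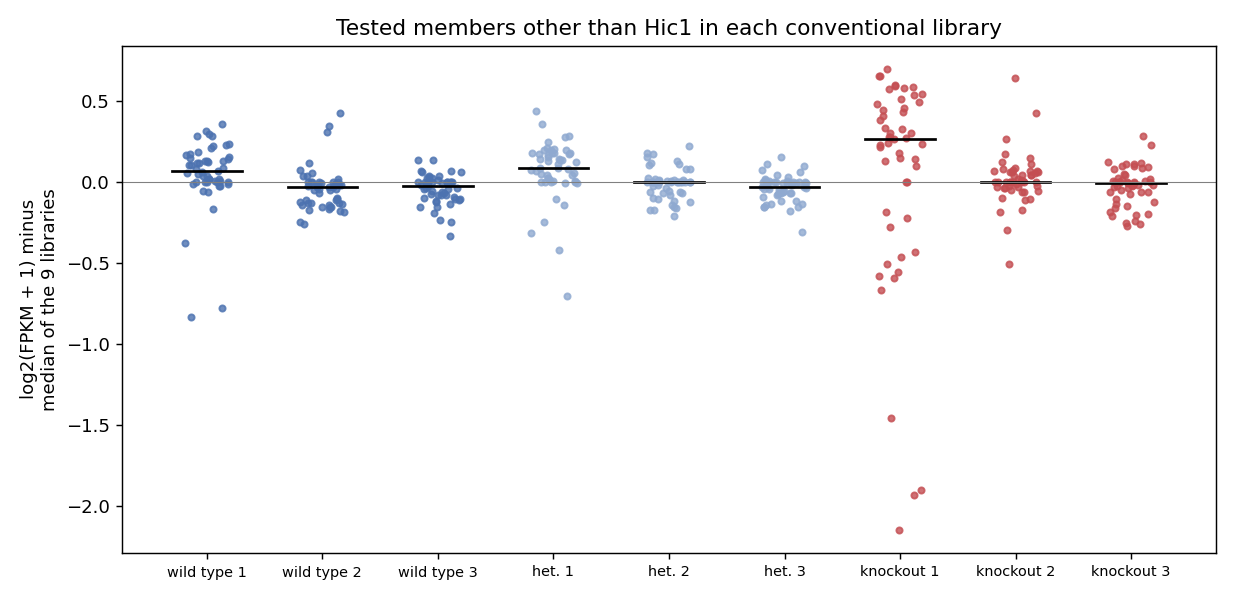
For each of the 9 conventional libraries (x), the log2(FPKM + 1) of every tested member other than Hic1 minus its median over the 9 libraries (y, points), with the library median as a line. Knockout replicate 1 spreads further in both directions than the other 8 libraries.

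By role, 16 listed genes of the human lissencephaly interval were all tested. The list leaves out the called members, Hic1 and Smg6, which lie in the same stretch. Of the 16 listed genes, 0 were called in either direction in any of the 6 comparisons, beside at most 0.263% of all genes. Their median log2 fold change in the conditional knockout was 0.02, beside 0.01 over all genes, and in the conventional knockout 0.12, beside -0.02. Pafah1b1 was at 58.7 ± 0.380 FPKM in conditional controls (SD, n = 5), 56.9 ± 1.37 in heterozygotes (n = 5) and 58.1 ± 1.49 in knockouts (n = 7). Ywhae, the 14-3-3 epsilon signalling adaptor, had the highest FPKM of all members, 448 ± 28.3 in conditional controls and 463 ± 16.3 in knockouts. Next in the conditional controls came Prpf8 (72.2 ± 6.29), Blmh, a cysteine peptidase (70.7 ± 2.93), and Hic1 (60.6 ± 5.52). Hic1 did not differ beyond the SD from the following genes, Nxn (59.1 ± 2.71) and Pafah1b1.

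Of the other role lists, RNA and protein making had 1 of 9 members higher, Smg6, in the conditional knockout against control (0.147% of all genes called higher) and against heterozygote (0.0542%), and 0 called elsewhere. Limb and skeletal genes had 0 of 5 called in every comparison; Fam101b, a filamin partner, was at 26.1 ± 0.932 FPKM in conditional controls and 24.7 ± 0.990 in knockouts. Membrane transport and lysosome genes had 0 of 6 called in the conditional comparisons and 0 of 7 in the conventional ones, with Ctns, the lysosomal cystine exporter, at 11.3 ± 0.739 and 11.6 ± 0.744 FPKM in conditional controls and knockouts. Peptidases and inhibitors had 0 of 3 called. Of the 10 nervous and sensory members 4 reached the tested level, and 0 of 4 were called. At most 0.263% of all genes were called in any comparison, so 0 calls in lists this short say little about a role.

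The remaining 24 members had a mean below 1 FPKM in both tables, with a highest value in any library of 1.59. The heat channels Trpv1 and Trpv3 reached at most 0.108 and 0.486 FPKM and the serotonin transporter Slc6a4 0.823. Listed at 0 in all 26 libraries were 9 members, among them Mir212 and Mir132 beside Hic1, and Mir22. PolyA libraries capture mature miRNAs poorly, so these zeros are no measure of the miRNAs.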

How the data were processed

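Per the labels' protocols, forelimb RNA was extracted with RNAzol and made into stranded mRNA libraries. The deposited values are FPKM, and per the submitters' processing notes the authors used bcl2fastq, TopHat2, Bowtie2 and Cufflinks with build mm10; versions, annotation and strand setting are not given in the sources used here. Dates in place of 27 symbols of the conditional table were restored by start identifier and locus. Deposited starts were read as counting from 0. Strand and gene type came from GENCODE M21, in which all 76 members matched, 7 by synonym.

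Each table was fitted separately with limma 3.58.1 in R 4.3.3 on log2(FPKM + 1), with a mean trend, all 3 genotype groups of a strategy, and only those genes whose mean reached 1 FPKM (12717 conventional, 12918 conditional); 52 and 51 members were tested. Tests were two-sided, with Benjamini-Hochberg adjustment over all tested genes and a threshold of 0.05. Fold changes on this scale understate those of low genes. The steps were tested on simulated data.

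Members and lists were chosen with earlier results of these data known. Named are the 8 nearest expressed members per side, called members, the 5 with the smallest p per comparison and examples of each role list; other genes were named after their values were seen. Same-numbered conventional libraries deviated together (9 pairs, r from 0.244 to 0.717), so the numbers were treated as a possible pairing. The conventional SEs, intervals and p-values in the Results nonetheless come from fits without this pairing. A replicate block was run as an alternative. All replicate 1 libraries also carry the letters CH and the others CL. A shift between these letters would also give positive r, and differently numbered libraries were not compared. The r values therefore cannot show pairing by number. Alternatives changed the pseudocount, filter, scaling, samples in the fit, block, letters, weights and libraries left out; the letter subsets were chosen after seeing the data.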

Additional observations from a re-analysis of the deposited data

Results flagged for a closer look

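Of 42 group values of named genes checked for a library far from the others, 2 were picked out, where chance gives about 1 in 20. Rtn4rl1 in conditional control replicate 3 was at 1.58 FPKM, the lowest of its group, whose median was 2.12. Gm12338 in conditional control replicate 1 was at 6.38 FPKM, the highest of its group, whose median was 4.41.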

How the results depend on the processing

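In the conditional knockout against control, 2 members were called in all 17 fits that left out 1 library, and 1 member with OB or NZ libraries alone. In the conditional heterozygote against control, 0 members were called with a pseudocount of 0.1, without the filter, with a replicate block, with letters as a batch term, with NZ or OB, OB, or NZ libraries, and 0 to 1 when 1 library was left out. The Hic1 log2 fold change there was -0.92 with a pseudocount of 0.1, -0.90 without the filter, -0.90 with the replicate block (limma adjusted p = 0.109), -0.85 with letters as a batch term, -0.85 with NZ or OB libraries, -0.88 with OB alone, -0.74 with NZ alone and -0.95 to -0.86 when 1 library was left out. The conditional knockout against heterozygote had 1 called member with letters as a batch term and with NZ or OB, OB, or NZ libraries, and 1 to 2 when 1 library was left out. Array weights, whose estimation did not converge for the conventional table, gave 24, 1 and 12 called members in conventional knockout against wild type, heterozygote against wild type and knockout against heterozygote, with Hic1 at -0.72 in the heterozygote; over all genes they gave 6726, 3 and 3943 calls. Signs turned for Rtn4rl1 in conventional knockout against heterozygote without heterozygote replicate 3 (-0.084; -0.084 to 0.18 over the libraries left out), for Smg6 in conditional heterozygote against control with OB alone (-0.030) and for Myo1c there with NZ alone (0.040), none of them called. The causes were not tested. With the replicate block, Smg6 in conditional knockout against control was at 0.55 (limma adjusted p = 0.00212) and the block changed no conventional count of called members; same-numbered conditional libraries shared a number only (15 pairs, r from -0.308 to 0.444). Without counts, the precision of low FPKM values, such as those of Rtn4rl1, is unknown.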
